A study of Homo sapiens with 8 samples.

Results

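The regions described here carried little of either Polycomb histone mark in wild-type HAP1 cells. They were chosen by their wild-type density, the mean normalized count of the 2 wild-type libraries divided by the width in kb. A region on chromosomes 1 to 22 was taken when its H2AK119ub density was below 2 and its H3K27me3 density was below 2.5. This gave 1472 of the 33178 regions on these chromosomes (4.44%), in a table of 34703 regions in all. They covered 11.1 Mb, which is 2.41% of the length of the whole table.

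HAP1 is a near-haploid human cell line, descended from KBM-7 cells of a chronic myeloid leukaemia. Chromatin immunoprecipitation followed by sequencing measured both marks in wild-type control cells and in RING1A/B-DKO cells, called knockout here, with 2 libraries for each of the 4 groups of mark and genotype. The knockout was made by CRISPR-Cas9 nickase editing of RING1B (gene RNF2) in HAP1 cells that already lacked RING1A. Clones grown from single sorted cells were screened for loss of RING1B protein. The number of clones behind the libraries is not stated in the labels. The libraries are called biological duplicates of cultures, so all spreads below are between cultures and cannot be read as spreads between clones. Neither genotype received a drug or other treatment that the labels name for HAP1.

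H2AK119ub is a single ubiquitin on a lysine in the tail of histone H2A. It is placed by Polycomb repressive complex 1 (PRC1), whose E3 ligase subunit is RING1A or RING1B. H3K27me3 is the trimethyl mark that PRC2 places on histone H3 through its catalytic subunit EZH1 or EZH2. The marks are linked in both directions, since the PRC2 partners JARID2 and AEBP2 can bind H2AK119ub and the CBX subunits of canonical PRC1 bind H3K27me3. Both marks peak over repressed developmental genes, and both also occur at low levels over broad stretches of chromatin between those peaks.

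The low class was compared with the other autosomal regions split by the same limits. The 2047 regions at or above the H2AK119ub limit with H3K27me3 below its own are called H2AK119ub only. The 2443 regions with the reverse are called H3K27me3 only, and the remaining 27216 are called both marks. The names describe wild-type density against these limits and nothing else. The wild-type values of all classes were fixed by the rule, so they are given as a description.

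Wild-type H3K27me3, summed over all 1472 low regions, was 1.91 and 1.94 normalized counts per kb in the 2 libraries. Wild-type H2AK119ub was 1.33 and 1.91 per kb. The H3K27me3 libraries were close to each other and the H2AK119ub libraries were not, with replicate 2 above replicate 1. By single regions, the H3K27me3 density of the wild-type mean had a median of 1.90 (10th and 90th percentiles 1.11 and 2.33), and that of H2AK119ub had a median of 1.61 (1.09 and 1.92). Both limits were met in each wild-type replicate alone by 521 of the 1472 regions (35.4%). The H2AK119ub limit was met by 1379 regions in replicate 1 and by 828 in replicate 2, so many members were above the limit in replicate 2 and below it in the mean.

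Regions at the limits had values next to each other. Positions here and below are on hg19 and count from 1. Among regions of at least 10 kb, the members nearest below the H2AK119ub limit had 1.992 and 1.995 normalized counts per kb, a 20.8 kb region on chromosome 8 being one of them, and the nearest regions outside had 2.0 each. At the H3K27me3 limit the nearest members had 2.48 each, one being 51206801 to 51237800 of chromosome 20 and the other 15191201 to 15215800 of chromosome 12. The nearest regions outside had 2.5 each, both on chromosome 4. Knockout H3K27me3 in these 4 regions at the H3K27me3 limit was 7.03 and 8.76 per kb inside and 5.04 and 4.94 outside. At the H2AK119ub limit it was 8.28 and 7.09 inside and 5.23 and 6.68 outside. Over whole classes the order was the other way. Summed knockout H3K27me3 was 6.71 per kb in the low class, 6.88 in H2AK119ub only and 7.40 in H3K27me3 only. Nothing is therefore read from these few regions.

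In knockout cells the low regions held H3K27me3 at a level close to that of the rest of the table. Summed over all 1472 regions, the density was 7.47 and 5.96 normalized counts per kb in knockout replicates 1 and 2. Both values lay far above the wild-type 1.91 and 1.94, and the genotypes did not overlap. The means were 1.93 ± 0.0152 in wild type and 6.71 ± 1.07 per kb in the knockout (SD, n = 2 libraries each), a ratio of 3.49, or 3.08 to 3.90 for the pairs of libraries. With 2 libraries on each side the exact two-sided permutation test cannot go below p = 0.333, which was its value. The other autosomal regions went from 5.40 ± 0.102 to 7.67 ± 0.861 per kb (SD, n = 2), a ratio of 1.42. The share of the H3K27me3 count that fell in the low regions went from 0.885% and 0.872% in wild type to 2.18% and 2.04% in the knockout. This share does not depend on scaling between libraries.

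**Figure D1:**
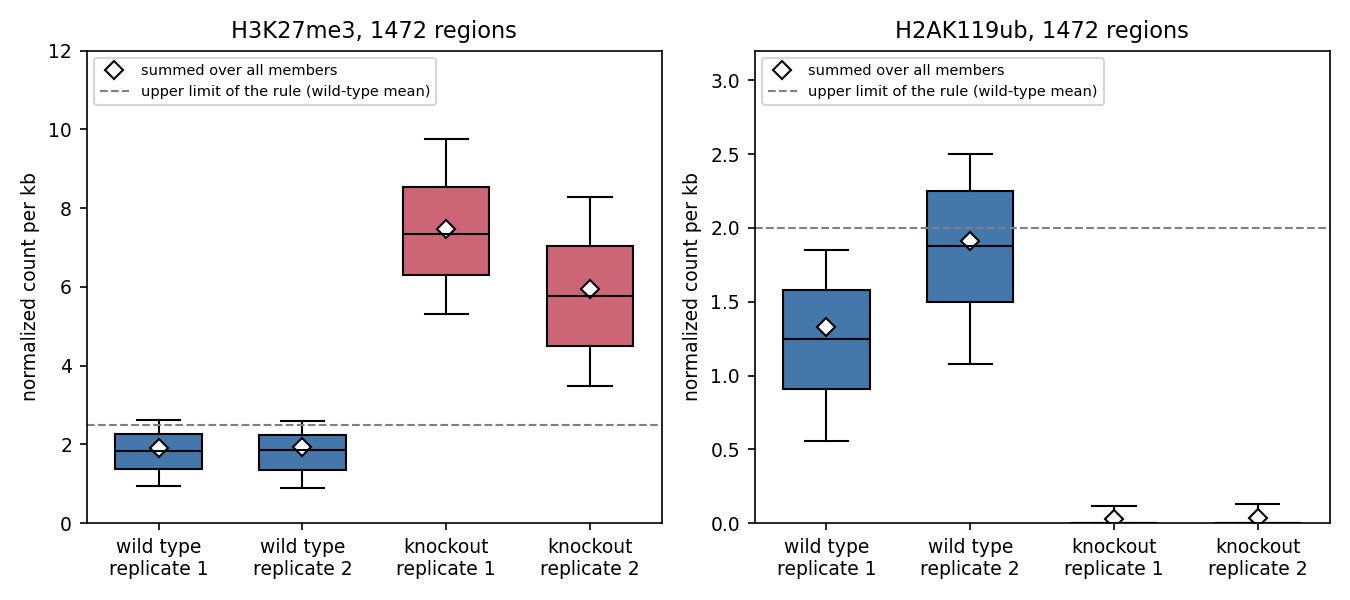
Density of each mark in the 1472 regions low in both marks, by library, in normalized counts per kb. Boxes span the quartiles over regions with the median as a line, whiskers reach the 10th and 90th percentiles, diamonds give the density summed over all regions, and dashed lines mark the limits of the rule. Knockout H3K27me3 (summed 7.47 and 5.96) lies above wild type (1.91 and 1.94), and knockout H2AK119ub lies near 0.

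The difference cannot be read apart from how a region came into the table. None of the 33178 autosomal regions had an H3K27me3 density below 2.5 in both genotypes, and the lowest value of the higher genotype was 2.50. A region below the limit in wild type therefore lay above it in the knockout without exception. All 1472 low regions had a knockout mean above their wild-type mean, and so had all 2047 regions of the H2AK119ub only class. No source used here gives the method or the libraries by which regions were called. The rise of these regions and their entry into the table cannot be told apart. Of the 27216 regions with both marks, 14880 had a knockout mean above wild type, and 5626 (20.7%) had a knockout density below 2.5.

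**Figure D2:**
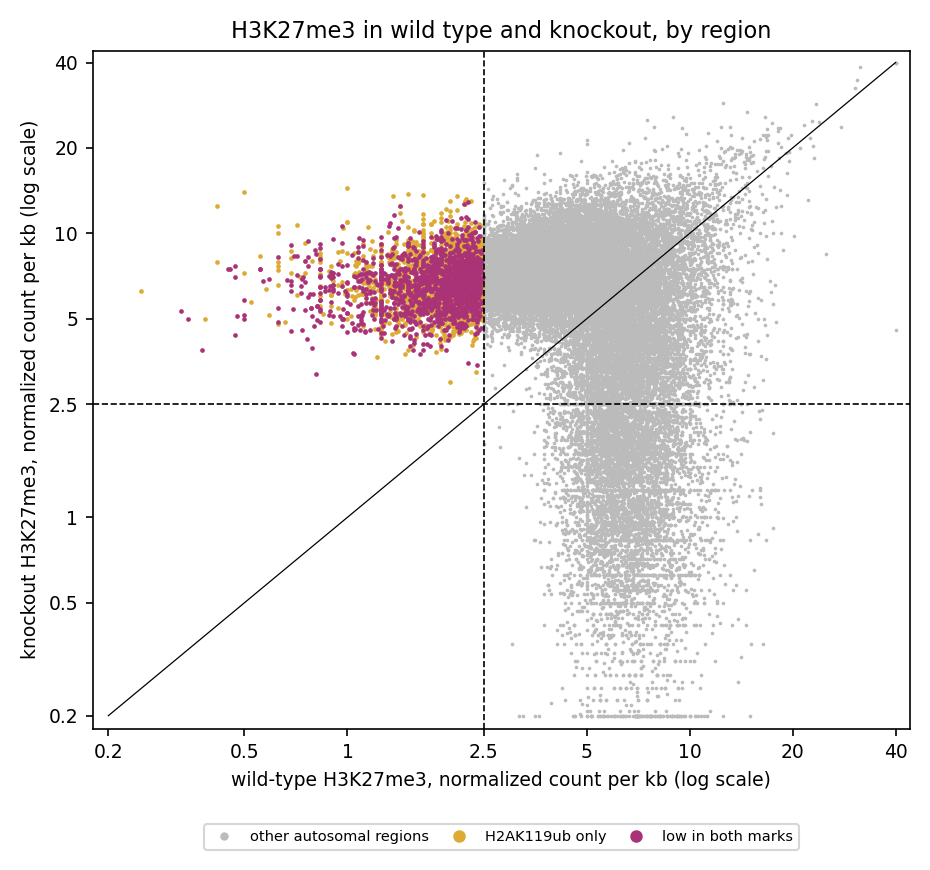
H3K27me3 density of every autosomal region in wild type (horizontal) and knockout (vertical), both in normalized counts per kb on log axes, with values beyond the axes drawn at the edge. Points show the 1472 regions low in both marks, the 2047 H2AK119ub only regions and the other autosomal regions, dashed lines mark 2.5 per kb, and the solid line marks equal density. The lower left corner, below 2.5 in both genotypes, holds 0 of 33178 regions.

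Single low regions were spread over a narrow range of knockout H3K27me3. The knockout mean density had a median of 6.53 per kb, a 10th percentile of 5.12, a 90th of 8.38, and a lowest and highest value of 3.19 and 12.9. In replicate 1 the median was 7.33 and in replicate 2 it was 5.76. Below 4 per kb lay 11 of the 1472 (0.747%), beside 0.342% of H2AK119ub only, 12.5% of H3K27me3 only and 31.2% of regions with both marks. In replicate 1 alone 5 low regions were below 2.5 per kb, and in replicate 2 alone 39 were.

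Region by region, 1339 of the 1472 low regions had values high enough to be tested for H3K27me3. Testing required 10 normalized counts in at least 2 of the 4 libraries, and 15 over all 4. Of the 1339, 569 passed through both knockout values alone, with neither wild-type value at 10, so they had to differ. limma with Benjamini-Hochberg adjustment over all tested regions called 1329 higher and 0 lower in the knockout at an adjusted p under 0.05. Of all 32209 tested regions it called 47.3% higher and 22.8% lower (15228 and 7338). This balance depended on the scaling, with 9613 higher and 10906 lower after scaling to column totals, and 9860 and 10759 with median-of-ratios factors. In the low regions these scalings gave 1120 and 1127 higher and 0 lower. The rule used the wild-type values of this comparison, so nothing is read from the difference. At an unadjusted p under 0.05 the low regions held 1333 higher and 0 lower. The median log2 fold change was 1.72 (10th and 90th percentiles 1.29 and 2.37), beside 0.58 over all tested regions. Both knockout values lay above both wild-type values in 1431 of the 1472, beside 53.3% of all regions. In the authors' deposited table, 793 of the 1472 had a log2 fold change above 1 with an unadjusted p under 0.05, beside 21.1% of all regions, and 0 had one below -1.

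The count of calls rested on having both libraries of each genotype. Without wild-type replicate 1 or replicate 2, limma with Benjamini-Hochberg adjustment called 0 low regions and 0 of all regions, with 982 and 962 low regions higher at an unadjusted p under 0.05. Without knockout replicate 1 it called 337 higher, and without knockout replicate 2 it called 619. The median log2 fold change of the low regions ran from 1.57 to 1.90 over these fits.

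Regions were also chosen by 1 wild-type replicate and their level was read from the other, so that choice and level came from different libraries. Replicate 1 of both marks alone chose 2280 regions, of which 1157 were among the 1472. Their H3K27me3 density was 1.94 per kb in the replicate that chose them and 2.29 in the other. Replicate 2 alone chose 1014 regions, 709 of them among the 1472, with 1.83 in the choosing replicate and 2.17 in the other. Knockout over held-out wild type was 3.01 and 3.09, beside 3.49 for the 1472 regions of the full rule. These are different sets of regions. The held-out library does not take away the link with entry into the table. No autosomal region was below 2.5 per kb in both genotypes, so a ratio above 1 was still favoured.

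By the naming rule, the largest rises were in regions almost without H3K27me3 in wild type. A 5.6 kb region on chromosome 6, from 69192801 to 69198400, had normalized counts of 3 and 2 in the wild-type libraries and 46 and 38 in the knockout libraries. Its log2 fold change was 3.63 ± 0.50 (SE; adjusted p = 7.4e-10, limma). Next came an 11.2 kb region of chromosome 7, 14620601 to 14631800. It had 5 and 11 in wild type, then 97 and 89 in the knockout (3.47 ± 0.34 SE). A second region on chromosome 6, from 55794001 to 55804600 (10.6 kb), went from 8 and 9 to 103 and 82 (3.29 ± 0.33 SE). In these 3 regions the genotypes were far apart and the knockout libraries were close to each other. Their low wild-type values were set by the rule, and the regions were picked for their rise. The p-value and the gap between genotypes are therefore a description and no support for a difference.

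The other 5 of the 8 largest rises were shorter, at 2.2 to 4.6 kb, and 3 of them lay on chromosome 4. The region on chromosome 4 from 189000601 to 189002800 had H3K27me3 values of 0 and 3 in wild type, against 19 and 21 in the knockout. The one from 188466401 to 188470400 had 3 and 2, then 27 and 39. The one from 93651601 to 93654800 had 1 and 2, then 34 and 15. In that region the knockout libraries differed by more than a factor of 2, as their counts show, and both still lay above wild type. Of the remaining pair, 54470801 to 54475400 on chromosome 10 had 2 and 1, then 32 and 17. The other, 86515201 to 86518400 on chromosome 13, had 1 and 2, then 26 and 19. All 8 regions were listed at 0 for H2AK119ub in both knockout libraries. No member met the rule for a fall, since 0 were called lower.

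The widest low regions gave the best-measured values. The widest, on chromosome 11 from 114763601 to 114894800 (131.2 kb), had 313 and 325 wild-type normalized counts of H3K27me3 and 1434 and 1321 knockout ones, a log2 fold change of 2.11 ± 0.15 (SE; adjusted p = 3.56e-24, limma). A 77.2 kb region of chromosome 9, 140915001 to 140992200, had 182 and 166, then 1041 and 955. At 12.9 normalized counts per kb it was the densest low region of all in knockout H3K27me3. Another wide region, on chromosome 20 from 51048401 to 51120000 (71.6 kb), had 138 and 124, then 750 and 620. The libraries of each genotype were close together in these 3 regions and the genotypes did not overlap. The rule had fixed their low wild-type density, so the p-value is a description here too.

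The 5 other regions among the 8 widest, at 62.6 to 71.8 kb, rose less, with log2 fold changes from 1.48 to 1.98. On chromosome 14, the region from 22456801 to 22528600 had H3K27me3 values of 177 and 161 in wild type, then 555 and 404 in the knockout. On chromosome 5, the region from 142852601 to 142924400 had 137 and 142, then 461 and 386, and that from 151790401 to 151857800 had 149 and 175, then 544 and 420. On chromosome 2, the region from 227531801 to 227598400 had 112 and 113, then 492 and 404. A second region on chromosome 11, from 128060801 to 128123400, had 114 and 124, then 505 and 400. Their knockout densities ran from 5.90 to 7.23 per kb, and replicate 1 was above replicate 2 in each, as in 92.2% of low regions of at least 20 kb.

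Among the 323 low regions of at least 10 kb, knockout H3K27me3 density had a median of 6.4 per kb (10th and 90th percentiles 5.14 and 8.06). The 6 densest held the chromosome 9, chromosome 11 and chromosome 20 regions above, together with a neighbour of the first on chromosome 9 from 140872801 to 140902200. Its normalized counts were 55 and 64 (wild type) and 310 and 252 (knockout). The other members of this set lay on chromosome 19 from 15971601 to 15983000, at 9.39 per kb, and on chromosome 16 from 51861201 to 51872400, at 9.06 per kb. At the other end, the lowest was on chromosome 14 from 26425401 to 26438400 (13 kb), with 8 and 13 in wild type, then 53 and 30 in the knockout. The next lowest, both at 3.88 per kb, were 145804001 to 145816000 of chromosome 6 and 99641601 to 99653200 of chromosome 4. The last 3, on chromosomes 11, 16 and 9, held 4.23, 4.40 and 4.46 per kb. All 12 named regions of this paragraph were called higher (adjusted p at most 0.00119, limma). So were 99.3% of all tested low regions, beside 47.3% of all tested regions. The rule had fixed their low wild-type values, so nothing is read from these calls. In the 6 lowest, knockout replicate 1 was above replicate 2 each time, by 4.08 against 2.31 per kb in the chromosome 14 region. It was also above in 75.9% of all low regions.

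Agreement between the knockout libraries depended on the width of the region. In the 323 regions of at least 10 kb, the H3K27me3 densities of knockout replicates 1 and 2 had a Spearman rho of 0.661. In the 596 regions under 4 kb it was -0.288. These are correlations across regions that share libraries, and regions are not replicates. In the narrow regions the knockout libraries differed 2.61 times as much as counting noise would give, taking normalized counts as read counts, while the wild-type libraries differed 1.02 times as much. The 2 knockout values were apart by more than 2-fold in 166 of the 596 (27.9%). At least 1 knockout library was at 5 per kb or more in all but 1 of them, although 68 were below 5 in replicate 1 and 206 in replicate 2. The 829 narrow H2AK119ub only regions had the same pattern, with a rho of -0.318 and 1 region below 5 in both. In the 9255 narrow regions with both marks the rho was 0.766, and 46.2% were below 5 in both. In narrow H3K27me3 only regions the knockout rho was 0.447. Between the wild-type libraries, whose values the rule limits, the rho was -0.13 in the narrow low regions. In neither genotype did the replicates thus share an order of the narrow low regions by H3K27me3. Whether this goes with the way regions entered the table was not tested.

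**Figure D3:**
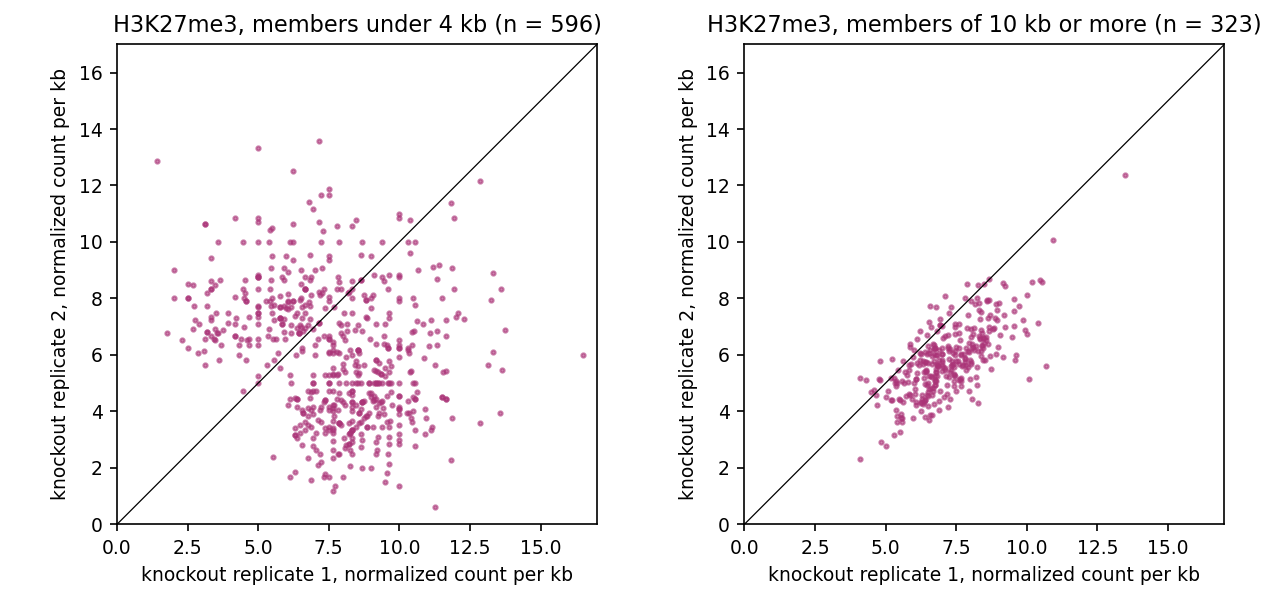
H3K27me3 density of each low region (member) in knockout replicate 1 (horizontal) and replicate 2 (vertical), in normalized counts per kb, for regions under 4 kb (n = 596) and of 10 kb or more (n = 323), with a line at equal density. Narrow regions fall into 2 clouds with a nearly empty lower left corner (rho -0.288), and wide regions lie along 1 band mostly below the line (rho 0.661).

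Compared with the other classes in the knockout, the low regions were most like those that shared their low H3K27me3 in wild type. In both of these classes 0 regions had a knockout mean below 2.5 per kb. In the H3K27me3 only class 6.92% did, and 20.7% of regions with both marks. The likeness therefore cannot be told apart from entry into the table. Within each knockout library, their H3K27me3 density was 0.989 and 0.958 times that of the H2AK119ub only regions. It was 0.924 and 0.886 times that of the H3K27me3 only regions, and 0.898 and 0.837 times that of the regions with both marks. The wild-type ratios, fixed by the rule, were 0.937 ± 0.00882, 0.560 ± 0.000483 and 0.341 ± 0.00395 (SD, n = 2). Against all other autosomal regions together the ratio was 0.356 ± 0.0039 in wild type and 0.873 ± 0.0412 in the knockout (SD, n = 2; exact two-sided permutation p = 0.333, the smallest possible). Wild-type H2AK119ub differed between low and H2AK119ub only regions, at 1.62 ± 0.411 and 2.65 ± 0.463 per kb (SD, n = 2), and their knockout H3K27me3 was 6.71 ± 1.07 and 6.88 ± 0.940 per kb (SD, n = 2). Within each knockout library the low class was the lower of the pair, at 7.467 against 7.545 per kb in replicate 1 and 5.96 against 6.22 in replicate 2.

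The order of the classes in the knockout changed with width. The low regions were split into 5 groups of nearly equal size by width, and the other classes by the same limits of width. In the narrowest group (median 2.4 kb) the low regions held 7.71 and 6.48 normalized counts of H3K27me3 per kb in the knockout libraries, and regions with both marks held 4.87 and 4.20. In the widest group (median 15.4 kb) these were 7.55 and 6.18 against 8.87 and 7.61. The low regions were thus 1.56 times as dense in the narrowest group and 0.832 times in the widest. No low region had a knockout mean below 2.5 per kb, while 20.7% of regions with both marks did. The order of these classes therefore cannot be told apart from entry into the table. Against H2AK119ub only regions the ratio stayed between 0.946 and 0.990 in all 5 groups. Knockout H3K27me3 of the low regions varied little with width, with means of 6.43 to 7.10 per kb over the 5 groups. The ratio to wild type went from 4.12 in the narrowest to 3.35 in the widest, where wild-type H3K27me3 was highest at 2.02 and 2.09 per kb.

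**Figure D4:**
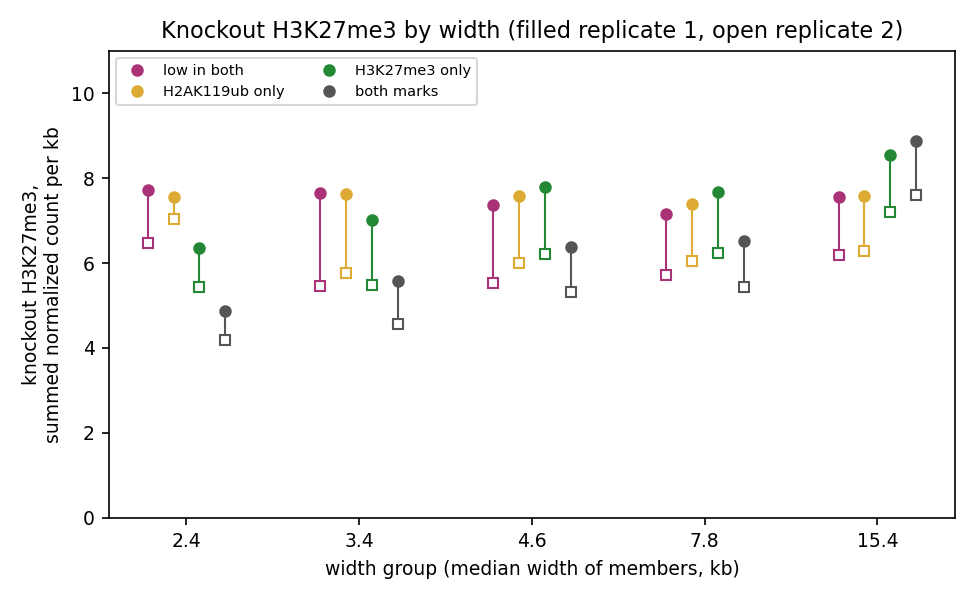
Knockout H3K27me3 summed per kb in 5 width groups, for regions low in both marks and the other autosomal classes, with filled circles for knockout replicate 1, open squares for replicate 2 and a line between them. The low class stays between 5.46 and 7.71 per kb, while the class with both marks goes from 4.87 and 4.20 in the narrowest group to 8.87 and 7.61 in the widest. The order of the classes cannot be told apart from how regions came into the table.

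H2AK119ub was nearly absent from the low regions in the knockout, on the values as deposited. The wild-type libraries held 1.33 and 1.91 normalized counts per kb, summed over the low regions, and the knockout libraries held 0.0306 and 0.0344. The genotypes did not overlap. The means were 1.62 ± 0.411 in wild type and 0.0325 ± 0.00268 per kb in the knockout (SD, n = 2), or 2.01% of wild type and 1.60% to 2.59% for the pairs of libraries (exact two-sided permutation p = 0.333, the smallest possible). The other autosomal regions kept 1.09%, with 0.0418 ± 0.00601 per kb in the knockout (SD, n = 2). In the knockout the low regions held 0.782 ± 0.0483 times the H2AK119ub density of those other regions, and 0.420 ± 0.0580 times in wild type (SD, n = 2). The higher remaining percentage thus goes with a lower wild-type level, which the rule fixed, and not with a higher knockout density.

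In knockout replicates 1 and 2, 1195 and 1189 of the 1472 low regions (81.2% and 80.8%) were at 0 for H2AK119ub, and 994 were at 0 in both. Only 82 were above 0 in both, and the highest single value was 10 normalized counts. Values above 0 in both libraries were seen in some wide regions, such as 5 and 10 in the widest region, on chromosome 11, and 5 and 4 in the 77.2 kb region on chromosome 9. They also occurred in narrow ones, such as 1 and 1 in a 3.0 kb region on chromosome 15. A 71.8 kb region on chromosome 14 had 2 and 0. The filter left 427 of the 1472 for the H2AK119ub test, with a median width of 12.6 kb. Each of the 427 had both wild-type values at 10 or more and none had both knockout values there, so each passed through the wild type and had to differ. limma with Benjamini-Hochberg adjustment called all 427 lower and 0 higher, beside 100% of all tested regions (23699 of 23700). Without adjustment, 0 were higher as well. Both knockout values lay below both wild-type values in 1409 of the 1472, beside 99.3% of all regions. The authors' deposited table gave a log2 fold change under -1 at an unadjusted p under 0.05 for 1056 of the 1472, beside 89.3% of all regions.

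The calls for H2AK119ub depended on the filter, the scaling and the wild-type libraries. Without wild-type replicate 1 or without wild-type replicate 2, 220 of the 427 were called lower. Scaling the columns to equal totals removes the loss by construction. It left 180 called lower and 11 higher, and the summed density became 1.84 times wild type. The fall in the low regions therefore rests on the authors' normalization between libraries, whose method no source used here gives.

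The low regions were narrower than regions with both marks, as the other classes were. Their median width was 4.4 kb (10th and 90th percentiles 2.2 and 15.4 kb), close to the 4.6 kb of H2AK119ub only and the 4.4 kb of H3K27me3 only regions, against 6.4 kb for regions with both marks. At least 20 kb were spanned by 90 of them (6.11%), against 7.91% of H2AK119ub only, 9.05% of H3K27me3 only and 19.1% of regions with both marks. At the median low region the knockout H3K27me3 value was 29.5 normalized counts, for which counting error alone gives a coefficient of variation of 18.4%.

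They were unevenly spread over the chromosomes. Chromosome 4 held 204 of them, 11.3% of its regions and 13.9% of all low regions, although it had 5.46% of autosomal regions. Chromosome 6 followed with 137 (6.65% of its regions). Chromosome 1, with the most regions, had 49 of 3285 (1.49%), and chromosome 22 had 8 of 378 (2.12%). The median over the 22 autosomes was 3.99%. Knockout H3K27me3 in the low regions differed little between chromosomes, from 6.26 ± 0.996 per kb on chromosome 3 to 7.61 ± 1.09 on chromosome 9 (SD, n = 2), beside 7.47 and 5.96 in the 2 libraries over all low regions. On each of the 22 chromosomes both knockout sums lay above both wild-type sums. The ratios ran from 3.10 on chromosome 22 to 3.97 on chromosome 9. All 1472 low regions had a knockout mean above wild type, and the rule fixed their low wild-type values. The 22 chromosomes are therefore no separate support for the rise.

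Low regions stood somewhat apart from regions with both marks, the class at or above both limits. The median distance to the nearest region of any class was 11.8 kb, against 9.8 kb for regions with both marks, and 91 (6.18%) had none within 100 kb, against 4.16%. The nearest region with both marks lay at a median of 38.3 kb, and within 50 kb for 823 of the 1472 (55.9%). From H2AK119ub only regions that median was 21.2 kb, and from H3K27me3 only regions it was 15.2 kb. Of the low regions, 509 lay up to 20 kb from a region with both marks and had 2.08 and 2.11 normalized counts of H3K27me3 per kb in wild type. The 226 that lay over 200 kb away had 1.5 and 1.49. Their knockout densities were 7.61 and 6.03 per kb for the near ones and 7.28 and 5.56 for the far ones. The ratio to wild type was 3.26 near and 4.30 far, with the wild-type levels farther apart than the knockout levels.

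The regions next in line on either side lay between the low regions and the rest in wild type, and slightly above the low regions in the knockout. The immediate neighbours had wild-type H3K27me3 medians of 2.68 per kb before and 2.66 after, against 1.90 for the low regions. At 3 places away these medians were 2.99 and 2.93. In the knockout the medians were 6.88 and 6.84 for the immediate neighbours and 6.53 for the low regions. Of the immediate neighbours, 24.2% on each side were low in both marks as well, against 4.44% of all autosomal regions. Restricted to neighbours of another class within 50 kb (1634 pairs), the low region was below its neighbour in 84.0% and 83.7% of pairs in the wild-type H3K27me3 libraries, which the rule favours. In the knockout libraries, which the rule did not use, it was below in 58.8% and 60.3% of pairs. These shares too cannot be told apart from entry into the table, since no low region had a knockout mean below 2.5 per kb. The median in the knockout libraries was 7.36 against 7.93 per kb in replicate 1 and 5.75 against 6.49 in replicate 2. This comparison was chosen after the values were seen.

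**Figure D5:**
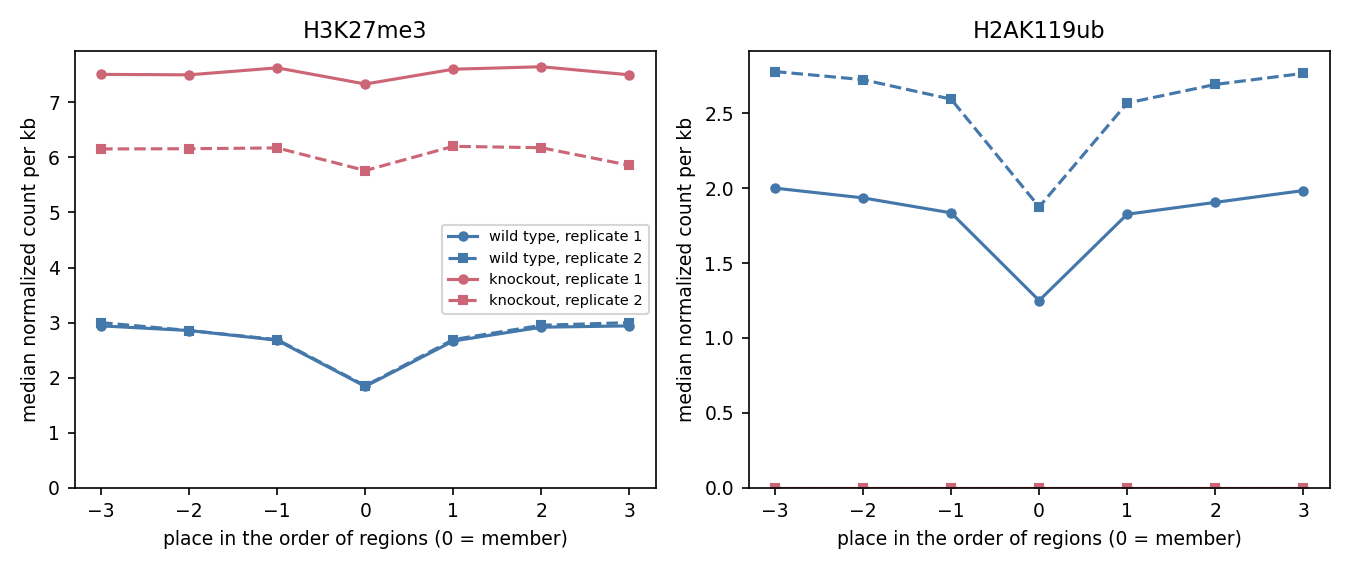
Median density of low regions (place 0) and of the regions up to 3 places before and after them, by library, for H3K27me3 and H2AK119ub in normalized counts per kb. The dip at place 0 in wild type is set by the rule. In knockout H3K27me3 the members (7.33 and 5.76) lie slightly below their immediate neighbours, and the knockout H2AK119ub medians are 0 at every place.

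Most low regions had no other low region beside them. Of the 1472, 884 (60.1%) stood alone between regions of other classes, and 588 formed 232 runs of 2 or more with no other region between. In 15 runs there were 5 or more members, and the longest held 8. On chromosome 6 a run of 8 from 55187401 to 55413400 covered 76.8 kb of regions. Its summed H3K27me3 was 105 and 91 normalized counts in wild type, then 622 and 451 in the knockout. Its H2AK119ub was 82 and 133 in wild type, then 2 and 6 in the knockout.

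Another run of 8, on chromosome 7 from 109126601 to 109405000, covered 31.6 kb and had 50 and 64 normalized counts of H3K27me3 in wild type, then 234 and 167 in the knockout. A run of 8 on chromosome 8 (64 kb) had 107 and 108, then 453 and 396. The fourth, a run of 6 on chromosome 16 from 5394201 to 5515200 (57.6 kb), had 122 and 126, then 488 and 395. It was tied in number of members with a pair of runs that covered less length. One, on chromosome 6 from 55693601 to 55804600 (45 kb), had 40 and 53, then 379 and 298, a ratio of 7.28. The other, on chromosome 9 from 104943201 to 106715400 (40.4 kb), had 59 and 68, then 254 and 226, a ratio of 3.78. In each of these 6 runs both knockout sums lay above both wild-type sums. This is no support for a rise, since the runs hold only members, all of which had a knockout mean above wild type. The ratios of the 6 runs went from 3.52 to 7.28, and the knockout densities from 5.29 to 8.47 per kb. The rule had fixed the wild-type values in these ratios to be low.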

How the data were processed

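Members and lists were chosen with earlier results of these data known. Reads were handled with deepTools, bedtools, Picard, SAMtools and Bowtie2 on hg19, per the submitters' processing notes, which give no versions. Per the file headers, the authors normalized the counts per region and library before they deposited them, and these whole numbers were treated as a score, not as raw counts. No source used here gives the normalization method, the region caller or the depth of the libraries. Totals over the regions ran from 17159 to 3788824. They are sums of normalized counts and do not give depth. The lowest, 17159 and 20938, were those of the knockout H2AK119ub libraries. The labels and the written protocol name different H3K27me3 antibodies, and the fly reference chromatin of the protocol is described for another cell line. The authors' deposited log2 fold changes and unadjusted p-values were counted as deposited.

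Positions were made 1-based by adding 1 to the deposited starts and ends. Density is the normalized count per kb of width. limma 3.58.1 in R 4.3.3 was run for each mark on log2(normalized count + 1) over all regions that passed the filter, with a trended prior and Benjamini-Hochberg adjusted p-values, and it was tested on simulated data. The planned count test was not used because the values were already normalized. Fold changes on this scale understate changes of low regions. For H3K27me3 the prior had 107 degrees of freedom, so its p-values rest on a spread shared across regions. Exact permutation tests over libraries and ranges were computed in Python 3.11.15 with scipy 1.17.1. No genome or annotation of hg19 was used, so regions are given by position, without genes or sequences, and the gene lists and the loci of the knocked-out genes were not analysed here. Named regions are the 8 largest rises and 6 largest falls among called members, the 8 widest, the 4 longest runs, the 6 highest and 6 lowest in knockout H3K27me3 among those of at least 10 kb, and those next to the limits.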

Additional observations from a re-analysis of the deposited data

Results flagged for a closer look

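Chromosome X was left out by the rule, and its regions were looked at because they carry the same signal outside the comparison above. Of its 1525 regions, 231 (15.1%) met both limits, against 4.44% on the autosomes. Their summed H3K27me3 was 1.91 and 1.90 normalized counts per kb in wild type. In the knockout it was 7.54 and 6.08, a ratio of 3.58, and all 231 had a knockout mean above wild type. H2AK119ub went from 1.36 and 1.85 to 0.0329 and 0.0369 per kb. As on the autosomes, the rise and the entry of a region into the table cannot be told apart.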

How the results depend on the processing

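The rise of H3K27me3 in the low regions (1329 called higher, ratio 3.49) kept its direction under every alternative run for it. That direction is no support for the rise, since members were chosen by low wild-type values. No autosomal region was below 2.5 per kb in both genotypes. The number called stayed within 1.5 times under the other filters, pseudocounts and scalings (897 to 1371). Leaving out a library gave 0 to 619 calls, and ratios of 3.10 to 3.88. Members chosen by wild-type replicate 1 or replicate 2 alone gave 2008 and 859 calls (and 1 lower call with replicate 2) and ratios of 3.01 and 3.09. The ratio was 2.41 with column totals, 2.43 with median-of-ratios factors, 4.40 with stricter limits (349 regions) and 3.02 with looser limits (3865 regions). Column totals and median-of-ratios factors lowered the median log2 fold change of all tested regions from 0.58 to 0.06 and 0.08, and that of the low regions from 1.72 to 1.23 and 1.25.

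The knockout H3K27me3 of the low regions relative to all other autosomal regions (0.873) was 0.930 with looser limits, and it passed above 1 with medians of single regions (1.04) and in the narrowest width group (1.46, an alternative added after seeing the data). It was 0.844 and 0.902 without a knockout library. The same ratio for H2AK119ub (0.782) ran from 0.748 to 0.816 without a knockout library.

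For H2AK119ub, 427 low regions were called lower. There were 1311 without a filter and 166 with a filter of 20, as more or fewer regions were tested. Column totals and median-of-ratios factors gave 180 each, and leaving out a library gave 220 to 427. Members chosen by replicate 1 or replicate 2 gave 816 and 259. The summed ratio (0.0201) was 0.0170 to 0.0245 without a library, 0.0270 with stricter limits and 0.0147 with members chosen by replicate 1. It was above 1 with column totals (1.84) and median-of-ratios factors (1.20), which remove the loss by construction. The median of densities is 0 in the knockout for H2AK119ub and was not run.

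With the replicate number as a block, 1329 low regions were called higher in H3K27me3 and 427 lower in H2AK119ub. The labels do not say that the numbers pair cultures, and across tested regions the deviations of same-numbered libraries had correlations of 0.0112 and -0.000149. Of the 25 named regions, none changed direction in any fit, which their choice by low wild-type values favours. A filter of 20 left 4 untested. The 25 calls were lost without either wild-type library, 12 without knockout replicate 1 and 6 without knockout replicate 2. In the fits without a wild-type library the prior had 1.4 degrees of freedom and the smallest adjusted p of all regions was 0.0836 and 0.0811 (limma), so a lost call says nothing about a single region. In the knockout, most low regions were at 0 for H2AK119ub, which limits what narrow ones show of this mark.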
